A study of Mus musculus with 15 samples.

Results

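The Clec genes are those members of the C-type lectin superfamily that carry a Clec symbol. They were taken as every gene whose single symbol in the array's annotation starts with Clec and a number, with the probe set of highest mean over all arrays where a gene had more than 1. This gave 33 genes of the 19938 genes measured, each compared between endothelial cells of the liver, brain and heart. The cells came from mice of the Tie2-GFP strain (FVB background). Their transgene places green fluorescent protein under the Tie2 (Tek) promoter, which is active in endothelium and, as background knowledge, also in some blood-borne myeloid cells. All mice were 8 to 12 weeks old, males and females were mixed in equal number, and none was treated. The 5 liver samples were pools of 2 mice each, the 5 brain samples pools of 6 mice and the 5 heart samples pools of 4 mice. Large vessels were cut away, tissues were digested, and GFP-positive cells were sorted straight into lysis buffer, after which 5 ng of RNA per sample was amplified and hybridised to 1 array. Livers were digested with dispase at room temperature, spun slowly to discard hepatocytes and passed through Percoll, brains were digested warm with collagenase and DNase followed by an albumin spin and trypsin, and hearts were digested warm with collagenase. Tissue, enzyme, temperature and pool size cannot be told apart in this design.

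C-type lectins share a fold that in many members binds sugars in the presence of calcium, and in others binds proteins or lipids instead. On macrophages, dendritic cells and platelets they act as receptors that recognise microbes or damaged cells and signal through ITAM-type motifs and the kinase Syk, or through inhibitory ITIM motifs and phosphatases. In the liver, sinusoidal endothelial cells and the Kupffer cells, which are macrophages that live in the sinusoids, both carry lectin receptors that clear glycoproteins and particles from blood.

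The unit throughout is log2 expression as deposited. A difference of 1 is a 2-fold change, and differences were tested with limma across all genes with Benjamini-Hochberg adjustment and a threshold of 0.05. Enrichment in a tissue required a difference of at least 1, passing the test, over each of the other tissues, and depletion required the same in the other direction. The Clec genes leaned towards the liver. In limma's test 13 of 33 were higher in liver than in brain (39.4%), where 14% of all genes were called in that direction, and 11 of 33 were higher in liver than in heart (33.3%), where 16.3% of all genes were. Lower in liver were 0 of 33 against brain, where 11.1% of all genes were, and 1 of 33, Clec4e, against heart, where 11.5% were. At an unadjusted p under 0.05 the first of these counts was 1, Clec4a4, with a difference of -0.19. Between brain and heart only Clec2d was higher in brain (8.29% of all genes were), and Clec1a and Clec9a were lower in brain (7.11% of all genes were). The median difference of the 33 genes was 0.13 for liver minus brain, against 0.00 over all genes, 0.16 for liver minus heart, against -0.03, and -0.05 for brain minus heart, against -0.03. The differences of most members were near 0.

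Enriched in liver were 9 of 33, namely Clec4g, Clec1b, Clec14a, Clec9a, Clec4f, Clec4n, Clec4a1, Clec4a3 and Clec12a (27.3%, where 2.69% of all genes were). Depleted in brain were 2, Clec1a and Clec9a (0.652% of all genes were), and depleted in heart was 1, Clec2d (0.311% of all genes were). Clec genes enriched in brain, enriched in heart or depleted in liver numbered 0 in limma's test and also 0 at an unadjusted p under 0.05, where 1.56%, 0.908% and 1.46% of all genes were called. The plot of tissue differences shows Clec4g and Clec1b far from the other members, and Clec9a, Clec1a and Clec2d off the diagonal. Heart was intermediate for Clec9a, as high as liver for Clec1a, and lower than liver and brain for Clec2d.

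**Figure D1:**
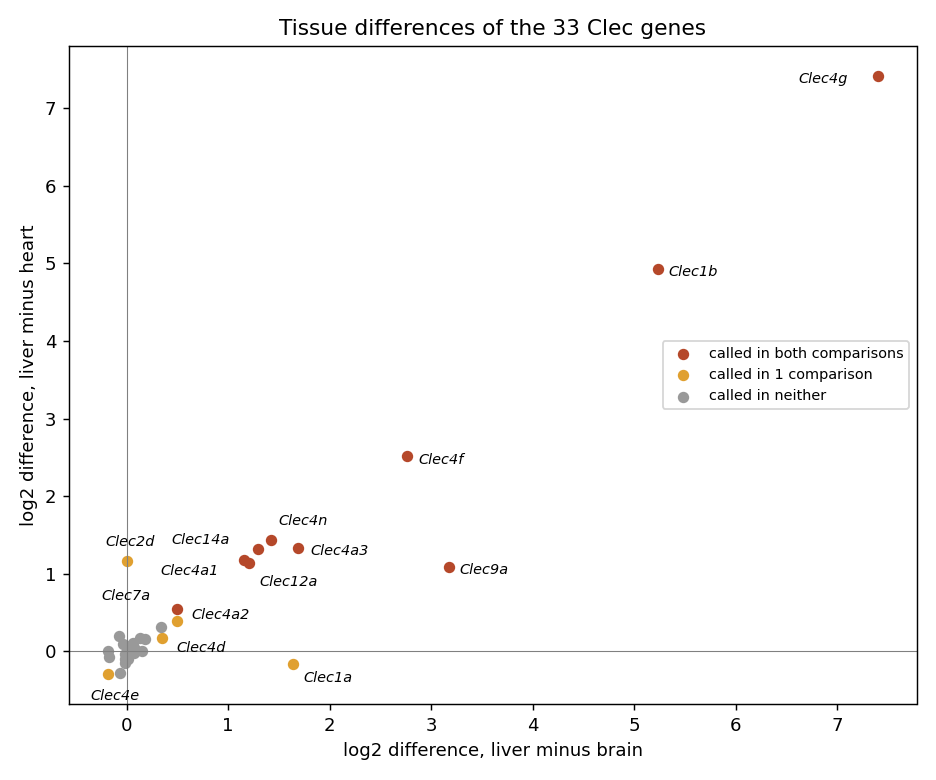
Each point is 1 of the 33 Clec genes, with its log2 difference of liver minus brain on the x axis and of liver minus heart on the y axis, coloured by whether limma called it in both comparisons, in 1 or in neither. Clec4g lies at 7.40 and 7.42, Clec1b at 5.23 and 4.93, and most members cluster near 0.

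The 9 liver-enriched genes fell into a pair of sets. In 4 of them, Clec4g, Clec1b, Clec14a and Clec9a, every liver array was high. In the other 5, Clec4f, Clec4n, Clec4a1, Clec4a3 and Clec12a, liver arrays 1, 3 and 4 were high while liver arrays 2 and 5 were near the brain and heart arrays, apart from Clec4f, which stayed above them. Since these are bulk samples, fewer cells of a type and less RNA per cell cannot be told apart. A further limit holds for all values below. Nothing in the labels says whether the 5 pools of a tissue were collected on separate days, so the p-values measure the spread between these pools.

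Clec4g and Clec1b had the greatest differences among the members, and the 250 bases before their start sites are shown because both genes were near the floor of the array outside the liver. The letters come from RefSeq's promoter table for GRCm38.p6, printed 5′ to 3′ on the gene's own strand. Clec4g lies on the minus strand (chr8:3720652-3720901) and Clec1b on the plus strand (chr6:129397047-129397296). Capitals mark matches on either strand to a GATA word (the word AGATAA, the word TGATAA, the word AGATAG or the word TGATAG, of the type bound by GATA factors) or to TATAAA, the TATA box.
Clec4g: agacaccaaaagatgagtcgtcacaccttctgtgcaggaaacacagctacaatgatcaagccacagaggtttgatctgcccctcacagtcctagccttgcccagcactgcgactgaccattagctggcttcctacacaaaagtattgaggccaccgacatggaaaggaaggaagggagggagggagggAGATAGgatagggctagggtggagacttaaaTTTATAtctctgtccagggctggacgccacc
Clec1b: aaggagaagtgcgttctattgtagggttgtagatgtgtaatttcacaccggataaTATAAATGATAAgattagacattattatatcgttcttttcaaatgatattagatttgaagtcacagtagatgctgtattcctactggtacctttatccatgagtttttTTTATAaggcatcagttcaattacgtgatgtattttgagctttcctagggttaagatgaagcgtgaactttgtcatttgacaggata
The Clec4g window holds AGATAG, and TATAAA on the reverse strand close to the start. The Clec1b window holds TGATAA directly after a TATAAA, and a further TATAAA on the reverse strand. A match is a description of these letters and not a binding site.

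Clec4g encodes LSECtin, a lectin of sinusoidal endothelium in liver and lymph node. It had log2 values of 12.51, 12.63, 12.58, 12.46 and 12.51 in liver arrays 1 to 5, against 4.84 to 5.40 in the brain arrays and 4.87 to 5.25 in the heart arrays. All 5 liver values lay within 0.17 of each other and more than 7 units above every other array. The fitted difference was 7.40 ± 0.11 (SE) over brain, 169-fold, with an adjusted p of 1.39e-18 in limma, and 7.42 ± 0.11 over heart, 171-fold, with an adjusted p of 1.61e-18. Brain and heart differed by 0.02 (adjusted p = 0.95). Its SD among the liver arrays, 0.067, was smaller than that of most genes, since 6.53% of all genes had a smaller one. These values belong to the brighter of the probe sets that carry the symbol Clec4g. The second one differed by only 1.84 over brain and 1.80 over heart, with a liver SD of 0.36. With the mean of both in place of the brighter one the difference over brain was 4.62.

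Clec1b encodes CLEC-2, best known as the platelet receptor for podoplanin and also present on some liver sinusoidal and myeloid cells. Clec1b measured 10.06, 10.54, 9.87, 10.12 and 10.54 in liver arrays 1 to 5, against 4.79 to 5.13 in brain and 5.07 to 5.51 in heart. The groups did not overlap, and the highest liver arrays were numbers 2 and 5. The difference was 5.23 ± 0.13 (SE) over brain, 37.6-fold (adjusted p = 1.89e-15 in limma), and 4.93 ± 0.13 over heart, 30.5-fold (adjusted p = 6.96e-15). Platelet markers were not uniformly high in liver. Of 5 measured platelet and megakaryocyte genes, 1 was higher in liver than in both tissues, where 10.4% of all genes were. It was the platelet chemokine Pf4, at 7.75 ± 0.53 in liver, 5.75 ± 0.53 in brain and 6.80 ± 0.21 in heart. The mean of the list ran from 6.32 to 6.86 in liver, 5.90 to 6.63 in brain and 6.39 to 6.65 in heart. Summed over the 5 genes the log2 values came to 31.6 to 34.3 in liver, 29.5 to 33.2 in brain and 31.9 to 33.3 in heart. Their part in the Clec1b signal was not tested. Podoplanin, Pdpn, the ligand of CLEC-2, did not pass the test in either comparison (5.84 in liver, 6.34 in brain and 5.96 in heart).

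Clec14a is an endothelial cell surface protein that binds the matrix protein multimerin-2 (Mmrn2). Clec14a stood at 10.50, 10.57, 10.56, 10.60 and 10.51 in liver arrays 1 to 5, against 9.33, 9.53, 9.33, 8.70 and 9.39 in brain and 8.93, 9.15, 9.19, 9.34 and 9.52 in heart. All tissues carried it well above the floor, the lowest liver array exceeded the highest of the others, and 1 brain array (number 4) lay under the rest. The difference was 1.29 ± 0.13 (SE) over brain, 2.45-fold (adjusted p = 5.8e-07 in limma), and 1.32 ± 0.13 over heart, 2.50-fold (adjusted p = 5.64e-07). Its SD in liver, 0.041, was the smallest among the members, and 1.56% of all genes had a smaller one. Mmrn2 itself was also higher in liver, at 10.40 ± 0.17, against 9.37 ± 0.25 in brain and 9.78 ± 0.23 in heart (SD, n = 5 each), with adjusted p-values of 7.03e-06 and 0.00141 in limma.

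Clec9a and Clec1a were the members depleted in brain. Clec9a encodes DNGR-1, a receptor of cross-presenting dendritic cells that binds actin filaments exposed by dead cells. Clec9a gave 8.10, 8.05, 8.47, 8.61 and 8.74 in liver arrays 1 to 5, against 4.92, 5.30, 5.58, 4.99 and 5.31 in brain and 7.28, 7.45, 7.36, 7.28 and 7.16 in heart. The 3 tissues formed separate levels without overlap, liver highest and brain lowest. The difference was 3.17 ± 0.14 (SE) over brain, 9.03-fold (adjusted p = 5.86e-12 in limma), and 1.09 ± 0.14 over heart, 2.13-fold (adjusted p = 1.13e-05). Brain minus heart was -2.08 ± 0.14, with heart 4.24-fold higher (adjusted p = 5.1e-09). The liver difference over heart was close to the limit of 1 for enrichment, and it came to 0.94 after a second quantile normalization.

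Markers of dendritic cells were mixed beside Clec9a. Of 11 measured genes on that list, 4 were higher in liver than in both other tissues, where 10.4% of all genes were. Cd74 (invariant chain), Irf8 and H2-Ab1 showed the greatest differences. Unlike Clec9a, Cd74 and H2-Ab1 were highest in liver arrays 1, 3 and 4. In liver arrays 1 to 5 Cd74 was at 8.11, 6.07, 8.74, 7.94 and 5.82, and H2-Ab1 at 7.33, 6.98, 8.27, 8.05 and 6.75. With liver arrays 1, 3 and 4 left out, 2 of the 11, Cd74 and Irf8, were still higher than in both. The list mean ran from 5.98 to 6.36 in liver, 5.53 to 5.74 in brain and 5.81 to 5.95 in heart, and 8, 5 and 5 members were over the floor in liver, brain and heart. The summed log2 values were 65.8 to 70.0 in liver, 60.9 to 63.2 in brain and 63.9 to 65.5 in heart. Xcr1, Flt3 and Batf3, which mark the cross-presenting subset and were named after their values were seen, did not pass the test in liver against either tissue. Xcr1 was at 4.32 in liver, 4.44 in brain and 4.59 in heart, Flt3 at 5.71, 5.48 and 5.61, and Batf3 at 5.36, 5.21 and 5.31. Zbtb46, a further gene of this list named after its values were seen, was lowest in brain, at 7.75 in liver, 7.37 in brain and 7.83 in heart. Its difference was 0.38 for liver minus brain (adjusted p = 0.00813 in limma) and -0.45 for brain minus heart (adjusted p = 0.00343). These were far smaller than those of Clec9a. Unlike Clec9a, it did not pass the test for liver minus heart (-0.08, adjusted p = 0.625). The part of dendritic cells in the Clec9a signal was not tested.

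Clec1a, a receptor that recognises fungal melanin and is known on endothelium, paired liver with heart. Clec1a read 8.17, 8.01, 8.63, 8.51 and 8.38 in liver arrays 1 to 5, against 7.01, 6.49, 6.80, 6.72 and 6.48 in brain and 8.22, 8.44, 8.61, 8.61 and 8.64 in heart. Every liver and heart array exceeded every brain array, and the liver and heart ranges overlapped. Liver minus brain was 1.64 ± 0.13 (SE), 3.11-fold (adjusted p = 1.81e-08 in limma), and brain minus heart was -1.80 ± 0.13, with heart 3.49-fold higher (adjusted p = 1.19e-08). Liver minus heart was -0.16 ± 0.13 and did not pass the test (adjusted p = 0.388).

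Clec2d was the member depleted in heart. It encodes a ligand of the inhibitory NKR-P1 receptors of natural killer cells. Clec2d reached 10.02, 10.64, 10.20, 10.45 and 10.31 in liver arrays 1 to 5 and 10.13, 10.81, 10.29, 10.10 and 10.25 in brain, against 8.77, 9.13, 8.96, 9.06 and 9.86 in heart. The heart arrays were lowest without overlap, although heart array 5 lay closer to the other tissues than to its own group. Liver minus heart was 1.17 ± 0.18 (SE), 2.25-fold (adjusted p = 7.81e-05 in limma), brain minus heart was 1.16 ± 0.18, 2.24-fold (adjusted p = 0.000146), and liver minus brain was 0.01 ± 0.18 (adjusted p = 0.986). Heart samples carried cardiomyocyte transcripts, and the 10 measured cardiomyocyte markers averaged 5.57 to 5.85 in liver and 5.53 to 5.87 in brain, against 7.92 to 9.65 in heart. Their sum was 55.7 to 58.5 in liver and 55.3 to 58.7 in brain, against 79.2 to 96.5 in heart. Heart arrays 4 and 5 had the lowest means of that group, 7.92 and 7.98. Stellate cell and fibroblast genes averaged 6.15 to 7.12 in heart, against 5.39 to 5.90 in liver and 5.34 to 5.83 in brain. Pericyte and smooth muscle genes averaged 6.90 to 8.38 in heart, against 6.13 to 6.25 in liver and 6.25 to 7.92 in brain. Heart array 5 had the lowest mean of its group in each of these lists. The part of all these cell types in the Clec2d difference was not tested.

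**Figure D2:**
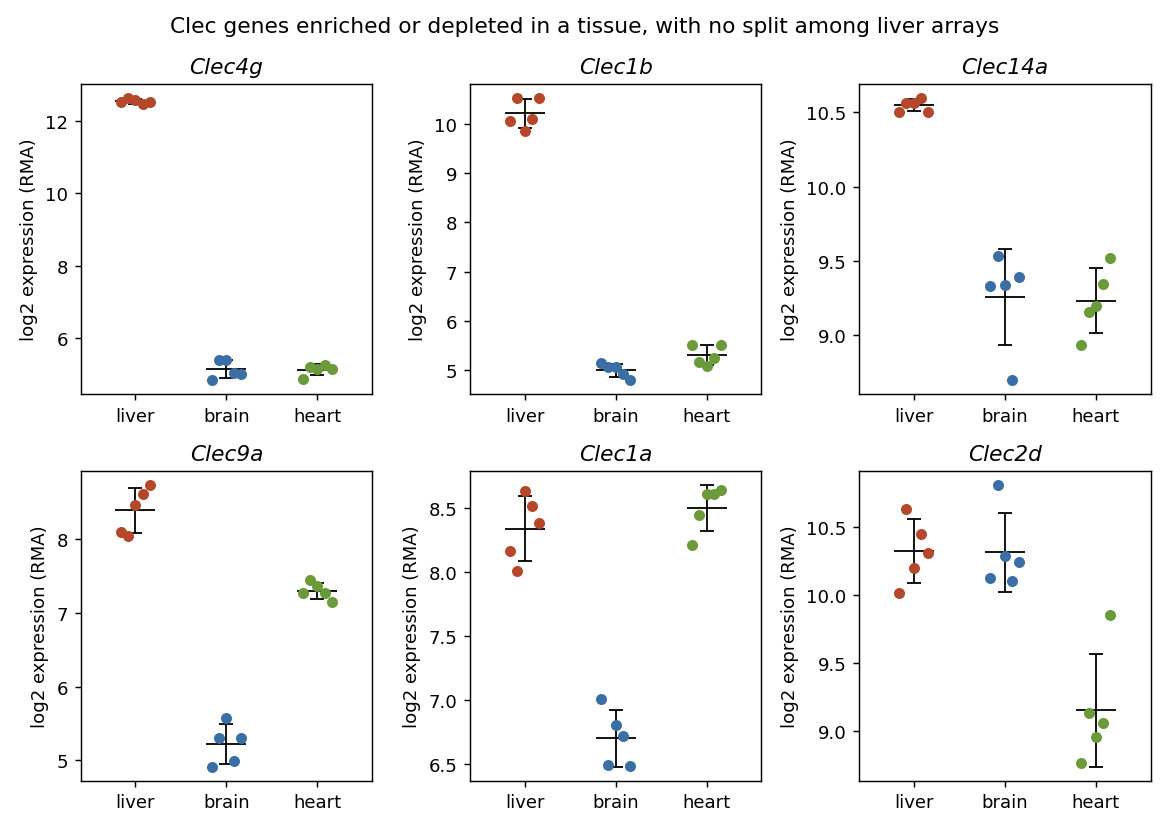
Log2 expression of 6 Clec genes that differed between tissues, 1 point per array, with 5 arrays per tissue ordered liver, brain, heart, and with the mean and SD as bars. Clec4g and Clec1b are high in every liver array only, Clec9a forms 3 levels, Clec1a is low in brain and Clec2d is low in heart.

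The uneven liver genes are led by Clec4f, the lectin of Kupffer cells that binds galactose-type glycans. The windows before the starts of Clec4f (minus strand, chr6:83656117-83656366), Clec4a1 (plus strand, chr6:122921598-122921847) and Clec12a (plus strand, chr6:129349994-129350243) are shown as examples of the genes with the same high and low liver arrays. Source, build and orientation are as above, and capitals mark GAGGAA on either strand, the PU-box word bound by the myeloid factor PU.1.
Clec4f: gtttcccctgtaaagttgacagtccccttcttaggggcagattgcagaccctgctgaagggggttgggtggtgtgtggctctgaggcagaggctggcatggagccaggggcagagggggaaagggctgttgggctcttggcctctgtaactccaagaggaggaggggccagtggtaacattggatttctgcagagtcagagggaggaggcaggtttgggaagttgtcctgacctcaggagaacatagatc
Clec4a1: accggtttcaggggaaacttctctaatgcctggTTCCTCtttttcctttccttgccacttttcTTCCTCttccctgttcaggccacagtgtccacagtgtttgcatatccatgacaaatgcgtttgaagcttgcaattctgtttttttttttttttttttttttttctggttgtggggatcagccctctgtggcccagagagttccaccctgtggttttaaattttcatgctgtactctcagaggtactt
Clec12a: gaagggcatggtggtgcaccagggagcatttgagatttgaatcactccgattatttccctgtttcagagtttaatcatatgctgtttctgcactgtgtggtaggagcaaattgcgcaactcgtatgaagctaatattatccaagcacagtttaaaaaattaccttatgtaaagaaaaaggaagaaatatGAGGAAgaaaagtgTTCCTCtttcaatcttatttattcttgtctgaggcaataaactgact
Clec4a1 holds the word at 2 places, both on the reverse strand, Clec12a holds it once on each strand, and the Clec4f window holds neither this word nor a GATA word or TATAAA. Of the uneven genes not shown, Clec4a2 holds GAGGAA 0 times, and Clec4n has no entry. Clec4a3, which has 2 listed starts, holds it 0 times before one and 1 time before the other. The word is not particular to genes with this split. It occurs 1 time each before Clec14a, high in every liver array, and before Clec2l, Clec16a and Clec18a, which passed no test. Before Clec4g, Clec1b and Clec9a it occurs 0 times. Over the 26 Clec genes with an entry, which have 29 promoters, GAGGAA occurred in 15 (51.7%), against 23.3% of 32851 promoters of all genes in windows of the same length. A GATA word occurred in 9 (31%, against 26.5% of all) and TATAAA in 7 (24.1%, against 12.4% of all). Several of these genes are close relatives that lie next to each other, so their windows are not independent sequences.

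Clec4f measured 9.18, 6.56, 9.70, 9.20 and 6.43 in liver arrays 1 to 5, against 5.01, 5.32, 5.54, 5.50 and 5.87 in brain and 5.56, 5.76, 5.59, 5.69 and 5.91 in heart. Liver arrays 1, 3 and 4 were far above liver arrays 2 and 5, and even these lay above every brain and heart array. The difference was 2.77 ± 0.51 (SE) over brain, 6.80-fold (adjusted p = 0.000395 in limma), and 2.51 ± 0.51 over heart, 5.71-fold (adjusted p = 0.000993). Within the liver group the highest array exceeded the lowest 9.69-fold. With liver arrays 1, 3 and 4 left out, a setting chosen after seeing the data, the difference was 1.04 over brain (adjusted p = 0.000601) and 0.79 over heart (adjusted p = 0.00585). Those arrays were picked because the uneven genes were high in them, so smaller differences without them follow from the choice. Wherever this setting appears, it leaves liver arrays 2 and 5 alone, describes the split and is no separate test of it.

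Clec4n encodes Dectin-2, a receptor for fungal mannans. Clec4n was at 6.13, 3.65, 6.09, 5.54 and 3.56 in liver arrays 1 to 5, against 3.41 to 3.69 in brain and 3.43 to 3.64 in heart. Liver arrays 2 and 5 fell inside the brain range. Over all arrays the difference was 1.43 ± 0.40 (SE) over brain, 2.69-fold (adjusted p = 0.0137 in limma), and 1.44 ± 0.40 over heart, 2.71-fold (adjusted p = 0.0125). With liver arrays 1, 3 and 4 left out it was 0.04 (adjusted p = 0.88) and 0.05 (adjusted p = 0.841).

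Clec4a1 and Clec4a3 belong to the DCIR family, whose founding member carries an inhibitory motif. Clec4a3 had values of 6.18, 4.37, 6.90, 7.14 and 4.25 in liver arrays 1 to 5, against 3.97 to 4.43 in brain and 4.11 to 4.93 in heart. Clec4a1 had values of 5.52, 3.99, 6.22, 5.88 and 3.70 in liver, against 3.71 to 4.12 in brain and 3.54 to 4.16 in heart. In both genes liver arrays 1, 3 and 4 exceeded every brain and heart array, and liver arrays 2 and 5 lay among them, with Clec4a1 in liver array 5 under all brain arrays. The Clec4a3 difference was 1.69 ± 0.45 (SE) over brain, 3.22-fold (adjusted p = 0.00868 in limma), and 1.33 ± 0.45 over heart, 2.51-fold (adjusted p = 0.0341), and that of Clec4a1 was 1.16 ± 0.37 over brain, 2.23-fold (adjusted p = 0.0273), and 1.17 ± 0.37 over heart, 2.26-fold (adjusted p = 0.0236). With liver arrays 1, 3 and 4 left out, Clec4a3 came to 0.23 over brain (adjusted p = 0.546) and -0.13 over heart (adjusted p = 0.768), and Clec4a1 to -0.06 (adjusted p = 0.883) and -0.04 (adjusted p = 0.923). Leaving out single arrays already ended calls. For Clec4a1 both calls were lost without liver array 1, 3 or 4, the call over brain without brain array 1 (adjusted p = 0.0573) or 2 (0.0532), and the call over heart without heart array 2 (0.0581). For Clec4a3 the call over heart was lost without liver array 1 (adjusted p = 0.0835), 3 (0.102) or 4 (0.0944) or heart array 3 (0.0625), 4 (0.0726) or 5 (0.0708). The probes of these relatives may bind each other's RNA, which could not be checked without the probe sequences. The split of signal between Clec4a1, Clec4a2, Clec4a3, Clec4a4, Clec4b1 and Clec4b2 is therefore uncertain.

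Clec12a encodes MICL, an inhibitory receptor of myeloid cells that binds uric acid crystals. Clec12a read 6.25, 4.39, 6.40, 5.70 and 4.08 in liver arrays 1 to 5, against 4.05 to 4.34 in brain and 4.01 to 4.55 in heart. Liver arrays 1, 3 and 4 again stood above all others, and liver arrays 2 and 5 lay within the heart range. Its difference was 1.20 ± 0.34 (SE) over brain, 2.31-fold (adjusted p = 0.0138 in limma), and 1.14 ± 0.34 over heart, 2.21-fold (adjusted p = 0.018). The call over heart was lost without liver array 1 (adjusted p = 0.0595) or 3 (0.0555), and with liver arrays 1, 3 and 4 left out the differences were 0.08 (adjusted p = 0.811) and 0.02 (adjusted p = 0.967).

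Clec4a2, which encodes DCIR1, a receptor with an inhibitory motif, was high in the same arrays with smaller differences. Clec4a2 gave 4.37, 3.65, 4.58, 4.15 and 3.42 in liver arrays 1 to 5, against 3.42 to 3.65 in brain and 3.49 to 3.75 in heart. Only liver arrays 1, 3 and 4 were above the other tissues. It was 0.49 ± 0.17 (SE) higher in liver than in brain, 1.41-fold (adjusted p = 0.0363 in limma), and the 0.40 over heart did not pass the test (adjusted p = 0.0896). The call over brain was lost without liver array 1, 3 or 4 or brain array 1, 3, 4 or 5, and the difference was -0.0064 (adjusted p = 0.982) with the 3 liver arrays left out together.

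**Figure D3:**
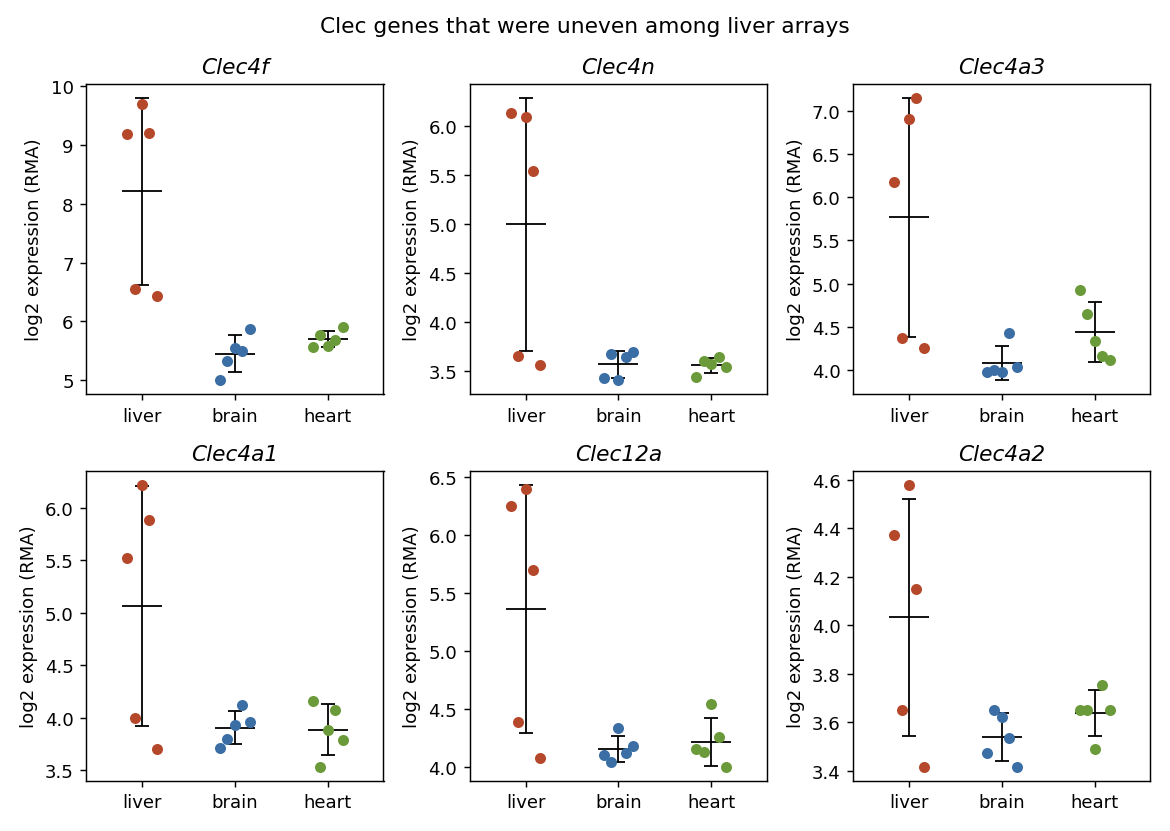
Log2 expression of 6 Clec genes with a liver SD over the 95th percentile of all genes and liver arrays 1, 3 and 4 highest. Each point is 1 array, ordered liver, brain, heart, with the mean and SD as bars. In each panel 3 liver points stand apart from the other 2, which reach the brain and heart arrays except for Clec4f.

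Spread among the liver arrays was compared with that of all genes. The 95th percentile of the SD over 5 liver arrays was 0.373 over all genes and the median 0.166. Over that percentile were 7 of 33 Clec genes, with SDs of 1.59 for Clec4f, 1.38 for Clec4a3, 1.29 for Clec4n, 1.14 for Clec4a1, 1.07 for Clec12a, 0.488 for Clec4a2 and 0.379 for Clec2l, the last just inside and Clec7a just outside at 0.369. In brain 0 Clec genes, and in heart 1, Clec2d (0.415), were over the 95th percentile of their own tissue, which was 0.367 in brain and 0.364 in heart. Clec2l differed from the rest, since its values of 4.93, 5.02, 5.51, 5.73 and 5.70 in liver arrays 1 to 5 put arrays 4 and 5 highest. Clec9a and Clec1b, high in every liver array, were not among the most even genes, since their liver SDs of 0.307 and 0.299 lay at the 90.1 and 89.3 percentiles of all genes. The Clec2l liver values lay within the range of its brain and heart arrays, 4.98 to 5.89, apart from liver array 1 just under it, and no comparison of it passed the test.

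**Figure D4:**
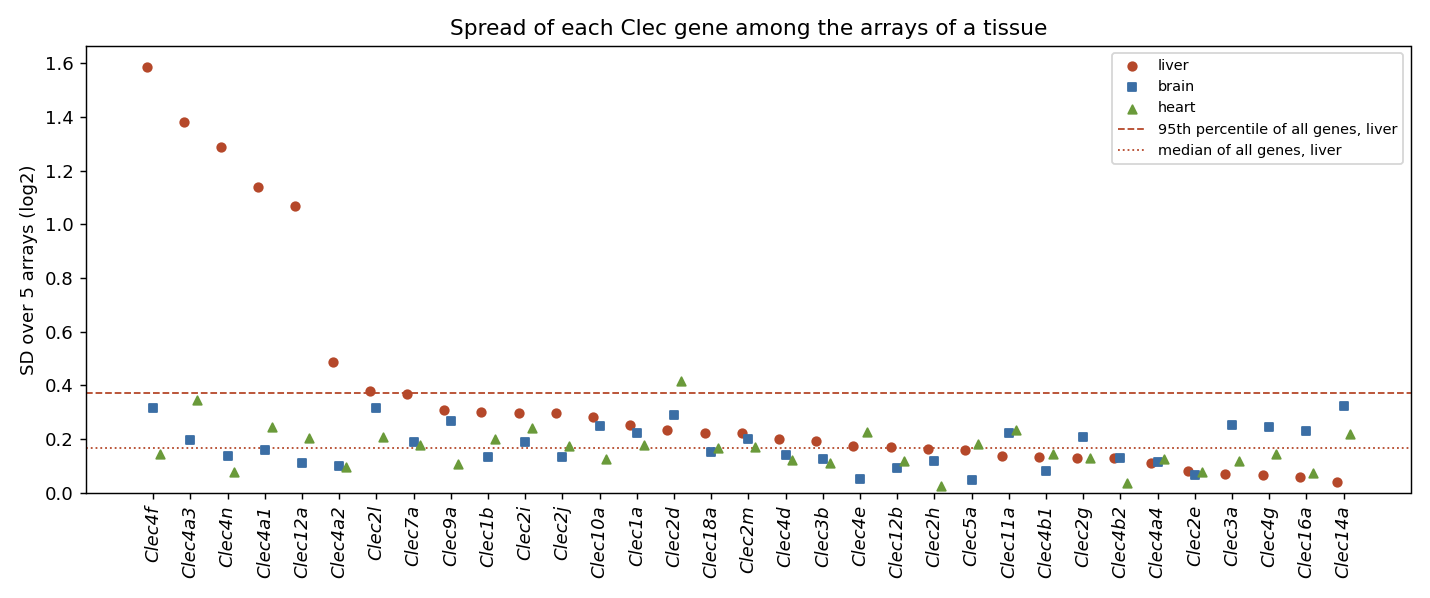
SD of log2 expression over the 5 arrays of each tissue for the 33 Clec genes, ordered by their liver SD, with liver, brain and heart as separate symbols, and with lines at the 95th percentile (0.373) and the median (0.166) of all genes in liver. Clec4f, Clec4a3, Clec4n, Clec4a1 and Clec12a reach SDs of 1.07 to 1.59 in liver, while their brain and heart SDs are far smaller.

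Most Kupffer genes without a Clec name were highest in the same liver arrays. The mean of 7 measured Kupffer markers was 7.19, 5.47, 8.00, 7.68 and 5.25 in liver arrays 1 to 5, against 4.61 to 4.82 in brain and 4.66 to 4.86 in heart. All 7 were higher in liver than in both other tissues, where 10.4% of all genes were, and 7 in liver, 0 in brain and 0 in heart were over the floor described below. Their summed log2 values were 36.7 to 56.0 in liver, 32.3 to 33.8 in brain and 32.6 to 34.0 in heart. Vsig4, the complement receptor of Kupffer cells, was at 10.23, 7.57, 10.64, 10.70 and 5.29 in liver arrays 1 to 5, and Timd4, a phosphatidylserine receptor, at 7.27, 5.36, 8.21, 7.67 and 5.38. Cd5l, a secreted macrophage protein, was at 7.45, 5.23, 7.91, 7.61 and 4.84. Arrays 1, 3 and 4 were highest in 6 of the 7 Kupffer genes, the exception being Folr2, where array 5 (5.95) exceeded array 1 (5.73). Array 5 was lowest in 3 of the 7 and array 2 in the other 4. The same 3 arrays were highest in Clec4f, Clec4n, Clec4a1, Clec4a2, Clec4a3 and Clec12a, in all of which array 2 came next and array 5 last. With liver arrays 1, 3 and 4 left out, 2 of the 7 Kupffer genes, Vsig4 and Cd5l, were still higher than in both tissues, against 7 with all arrays. Of the Clec genes 5 were still higher than in both, namely Clec4g, Clec1b, Clec9a, Clec14a and Clec4f, against 10 with all arrays, and all of these except Clec4f were enriched. The Clec genes higher than in brain were then 6, and so were those higher than in heart. The share of all genes called was counted only with all arrays, so these counts have no such share beside them. With liver arrays 2 and 5 left out instead, the 9 enriched Clec genes were the same, which the choice of arrays likewise favoured. The part of Kupffer cell content in the uneven Clec values was not tested.

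**Figure D5:**
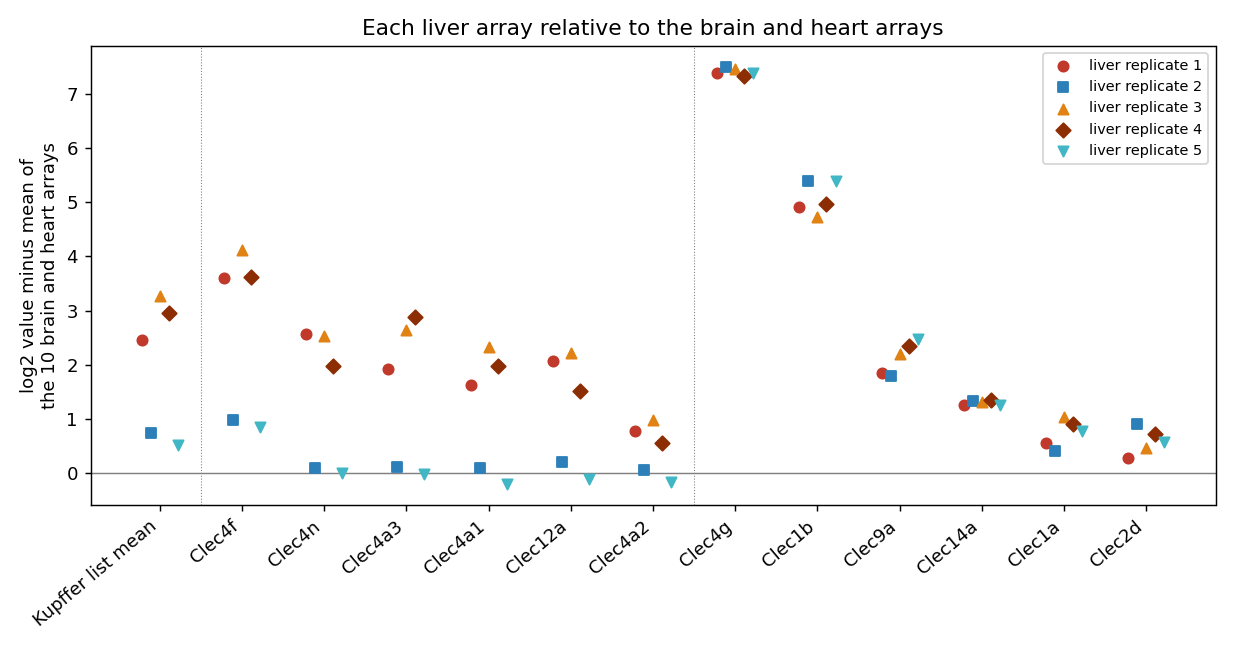
Log2 value of each liver array minus the mean of the 10 brain and heart arrays, for the mean of the Kupffer list (left), 6 uneven Clec genes (middle) and 6 Clec genes without that split (right), with 1 symbol per liver array. Liver arrays 1, 3 and 4 lie above arrays 2 and 5 in the left and middle blocks, and in the right block they do not separate in this way.

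Genes of other cell types gave further context, each counted as higher in liver than in both other tissues, where 10.4% of all genes were. Macrophage and monocyte genes numbered 9 of 17, with liver arrays 1 to 5 at means of 7.11, 5.71, 7.51, 7.32 and 5.62, against 5.24 to 5.53 in brain and 5.25 to 5.68 in heart. Hepatocyte genes numbered 7 of 10, at 6.95 to 7.62 in liver, 5.97 to 6.10 in brain and 5.03 to 5.26 in heart. Their highest liver array was number 5, where Clec4f was lowest. The brain mean includes Ttr, at 12.5 in brain, 8.44 in liver and 5.33 in heart. Alb was at 9.88 in liver, 4.19 in brain and 4.26 in heart. T and natural killer cell genes numbered 3 of 10, B cell genes 1 of 7, and stellate cell and fibroblast genes 1 of 11. Counts of 1 in lists this short are near the share of all genes. Granulocyte, neuron and glia, and cardiomyocyte genes numbered 0 of 9, 0 of 9 and 0 of 10. Pericyte and smooth muscle genes numbered 0 of 9, and 4 were lower in liver than in both, where 5.64% of all genes were. All 18 pan-endothelial genes were over the floor in every tissue, with array means of 10.07 to 10.32 in liver, 10.23 to 10.59 in brain and 10.18 to 10.27 in heart, and 3 were higher and 3 lower in liver than in both. The part of these cell types in the Clec differences was not tested.

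The remaining myeloid receptors of the family moved little. Clec7a (Dectin-1, the receptor for beta-glucans) was higher in liver by 0.50 over brain (adjusted p = 0.0186 in limma) and 0.55 over heart (adjusted p = 0.00985), with values of 5.95, 4.99, 5.38, 5.48 and 5.14 in liver arrays 1 to 5, against 4.58 to 5.09 in brain and 4.65 to 5.04 in heart. Arrays 1, 3 and 4 were the highest of its liver group too, and liver array 2 lay inside the range of both tissues. Both calls ended with liver arrays 1, 3 and 4 left out (0.18, adjusted p = 0.505, and 0.23, adjusted p = 0.358), and the call over brain ended without brain array 1 (adjusted p = 0.0553). Clec4d, a partner of Mincle, was 0.35 higher in liver than in brain (adjusted p = 0.0147), and 0.17 over heart did not pass the test (adjusted p = 0.232). The call over brain ended with liver arrays 1, 3 and 4 left out (0.24, adjusted p = 0.197). Clec4e, which encodes Mincle, a receptor for mycobacterial glycolipid, was 0.30 lower in liver than in heart (difference -0.30, adjusted p = 0.0431), with 3.73 to 4.14 in liver against 3.83 to 4.36 in heart, and the call ended without liver array 1, 2, 3 or 5, brain array 1, 2, 3 or 5, or heart array 3, 4 or 5. Clec5a, which couples to DAP12, and Clec10a (Mgl1, a galactose-type lectin of macrophages) passed no test, with tissue means of 3.94 in liver, 3.86 in brain and 3.96 in heart for Clec5a and 3.80, 3.63 and 3.64 for Clec10a.

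The other members passed no test in any comparison. Among them were the Clec2d relatives Clec2e, Clec2g, Clec2h, Clec2i, Clec2j, Clec2l and Clec2m, whose differences between tissues lay between -0.28 and 0.34. Clec3b (tetranectin, a plasminogen-binding protein) had means of 5.24 in liver, 5.25 in brain and 5.33 in heart. Clec11a, a secreted growth factor of bone and blood cells, had 5.21, 5.15 and 5.10 in these tissues. Clec16a, an endolysosomal protein that is not a classical lectin, was expressed evenly at 7.59 in liver, 7.76 in brain and 7.66 in heart. Clec18a was at 5.97, 5.98 and 6.12, and Clec3a, Clec4a4, Clec4b1, Clec4b2 and Clec12b differed by at most 0.19 in any comparison.

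Levels were set against the olfactory receptor (Olfr) genes, which are mostly silent outside the nose. The 95th percentile of the tissue means of 1027 Olfr genes was 5.64 in liver, 5.67 in brain and 5.77 in heart, and this served as the floor. Over it were 11 of 33 Clec genes in liver (33.3%, against 58.8% of all genes), 6 in brain (18.2%, against 58.9%) and 7 in heart (21.2%, against 57.5%). Clec1a, Clec2d, Clec2h, Clec14a, Clec16a and Clec18a were over the floor in all 3 tissues. Clec9a was over it in liver and heart, and Clec1b, Clec4a3, Clec4f and Clec4g in liver. The remaining 22 members were at or under it in every tissue, and probe sets differ in affinity, so these genes are not shown to be absent. Of the enriched genes, Clec4n, Clec4a1 and Clec12a belonged to the 22, although their liver arrays 1, 3 and 4 stood above every brain and heart array.

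The position of the genes was shared by members that differed. Of the 33 genes, 25 lie on chromosome 6, 3 on chromosome 8 and 1 each on chromosomes 7, 9, 11, 12 and 16. In RefSeq's gene order a run of 9 neighbouring coding genes on chromosome 6 holds Clec4a1, Clec4a3, Clec4a4, Clec4b1, Clec4a2, Clec4b2, Clec4n, Clec4d and Clec4e, of which 3 were enriched in liver. A second run of 7 holds Clec2m, Clec12a, Clec12b, Clec1b, Clec9a, Clec1a and Clec7a. Within that run Clec1b and Clec9a were high in all liver arrays, Clec12a was high in liver arrays 1, 3 and 4, Clec1a was low in brain, and Clec2m and Clec12b passed no test.

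Lectin receptors without a Clec name went in both directions. Of 32 measured, 9 were higher in liver than in both other tissues and 3 were lower, where 10.4% and 5.64% of all genes were. Against brain 9 were higher and 6 lower (14% and 11.1% of all genes), against heart 11 and 3 (16.3% and 11.5% of all genes), with median differences of 0.10 and 0.09. Mrc1, the mannose receptor of sinusoidal endothelium and macrophages, was at 12.09, 12.35, 12.08, 12.29 and 12.02 in liver arrays 1 to 5, against 4.53 to 5.19 in brain and 4.82 to 5.45 in heart. Its even values resembled those of Clec4g, with differences of 7.35 over brain (adjusted p = 4.53e-17) and 7.10 over heart (adjusted p = 1.61e-16). Pla2r1, a relative of Mrc1, was 3.69 higher than in brain (adjusted p = 3.15e-13) and 3.14 higher than in heart (adjusted p = 4.94e-12).

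Signalling partners of the lectins went in both directions too, and included even and uneven genes among the liver arrays. Of 18 measured, 8 were higher and 3 lower in liver than in brain, where 14% and 11.1% of all genes were, and 8 were higher and 3 lower than in heart, where 16.3% and 11.5% were. Higher than in both were 7 and lower 2, where 10.4% and 5.64% of all genes were. Tyrobp (DAP12), the adaptor of several myeloid receptors and also on the macrophage list, was at 10.65, 8.32, 10.96, 11.08 and 8.39 in liver arrays 1 to 5, against 6.49 to 7.49 in brain and 6.62 to 7.27 in heart, high in arrays 1, 3 and 4 as Clec4f was. Its differences of 2.93 and 2.81 came to 1.40 and 1.29 with those arrays left out. Lcp2 (SLP-76), the adaptor downstream of Syk, was high in every liver array, at 9.08, 8.51, 8.88, 8.60 and 8.82. Its brain arrays were at 5.79 to 6.29 and its heart arrays at 5.68 to 6.06 (adjusted p = 3.85e-12 and 2.98e-12 in limma). Of 10 ligands, 2 were higher and 2 lower in liver than in brain and 1 and 2 against heart, counts near what those shares of all genes give for 10 genes. Mmrn2 was higher and vimentin (Vim) lower than in both.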

How the data were processed

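Expression was measured on 15 Affymetrix arrays, 5 each of sorted endothelial cells from liver, brain and heart. Values of 35556 probe sets, on the log2 scale, were deposited by the authors after RMA in Affymetrix Power Tools, per the submitters' processing notes. Software versions and the probes' genome build were not given in the sources used here. RMA equalises the arrays' distributions, and array medians were 5.98 to 6.11, and it compresses large differences. No scanner background was used here, and 5 arrays per tissue limit the precision.

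Of the probe sets 21789 carried 1 symbol in the platform annotation, which gave 19938 genes. Tissues came from the sample titles. A linear model with 1 mean for each tissue was run over all genes and arrays in limma 3.58.1 (lmFit and eBayes, 12 residual and 4.75 prior degrees of freedom) in R 4.3.3, with Benjamini-Hochberg adjustment over all genes within a contrast, and was tested on simulated data. Folds are powers of 2 of log2 differences. Values per array are given for Clec4g, Clec4f, members enriched or depleted in a tissue, and members with a liver SD over the 95th percentile of all genes; of the other lists at most the 3 genes with the greatest difference from the nearer tissue are named, and Vsig4, Timd4 and Cd5l. Exceptions named after their values were seen are Clec7a's arrays, Xcr1, Flt3, Batf3, Zbtb46, Folr2 and Pdpn. The members, the lists of cell type markers, other lectins, signalling partners and ligands, and the tests were chosen with earlier results of these data known. The table of RefSeq names (GRCm38.p6) matched all 33 symbols. Alternatives were the mean of probe sets, a filter on low values, centring, quantile normalization, a trended robust prior, array weights, a replicate block, only the tissues compared, each array left out and, chosen after seeing the data, sets of liver arrays left out.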

Additional observations from a re-analysis of the deposited data

Results flagged for a closer look

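In 9 of the 99 groups formed by 33 Clec genes in 3 tissues, 1 array lay far from the other 4 relative to the group's whole range. Chance gives about 1 in 20 such groups. Brain array 4 was involved in 3 of them. It held 8.7 for Clec14a, where the other brain arrays were at 9.33 to 9.53, 4.43 for Clec4a3, where they were at 3.97 to 4.03, and 4.24 for Clec2e, where they were at 4.07 to 4.11. Brain array 2 was high for Clec2d, at 10.81 against 10.1 to 10.29, and brain array 1 was low for Clec2g, at 3.61 against 4.03 to 4.13. In heart, array 5 was high for Clec5a (4.27 against 3.81 to 3.93), array 1 for Clec12b (4.71 against 4.44 to 4.46) and array 3 for Clec16a (7.79 against 7.62 to 7.63). In liver, array 1 was high for Clec10a, at 4.3 against 3.61 to 3.79. None of the 6 liver groups split by arrays 1, 3 and 4 is among these, and Clec4a3 is listed for its brain arrays alone.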

How the results depend on the processing

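Clec4g, Clec1b, Clec14a, Clec9a and Clec4f kept their calls over brain and heart in every alternative listed in the processing notes. Clec1a kept its calls in the comparisons with brain, and Clec2d in those with heart, in every alternative too. Clec4n kept both calls in every alternative that measured it, except that it lost both with liver arrays 1, 3 and 4 left out. The filter on low values required a mean over all arrays of at least 5.71. It kept 10 Clec genes, of which 6 were higher in liver than in brain and 6 higher and 0 lower than in heart. Enriched in liver were 5, since Clec4n, Clec4a1, Clec4a3 and Clec12a were not tested. Clec4g, Clec1b and Clec4f had brain and heart means under 5.71 and passed the filter only through their liver arrays. Their calls under it are therefore no added support. With liver arrays 1, 3 and 4 left out these counts were 6, 6, 0 and 4, and the differences of Clec4a1 (-0.0583 and -0.0413), Clec4a2 over brain (-0.0064) and Clec4a3 over heart (-0.13) turned negative, with 2 liver arrays left. The count lower than in heart, 1 (Clec4e), was 0 also with centring, second quantile normalization, array weights, only the arrays compared, and liver arrays 2 and 5 left out. Centring on the pan-endothelial genes shifted every gene by 0.24 (liver minus brain), 0.02 (liver minus heart) and -0.22 (brain minus heart); 19 Clec genes were then higher in liver than in brain, 5 lower in brain than in heart, and 0 depleted in heart, where Clec2d came to 0.94 for brain minus heart. Leaving out 1 array at a time gave 10 to 13 higher and 0 lower in liver than in brain, 8 to 12 higher and 0 to 1 lower than in heart, 1 higher and 2 lower in brain than in heart, 6 to 9 enriched in liver, 2 depleted in brain, 1 depleted in heart and 6 to 8 over the 95th percentile of liver SD. Deviations of samples with the same number, s1 to s5, correlated at -0.001 to 0.204, over 0 in 14 of 15 pairs, and a sample matched its own number best in 20 of 30 lookups, where 1 in 5 would be 6. This is a hint from the data of something shared by number; the labels state none, and the samples were not treated as paired. With the replicate block 14 Clec genes were higher and 0 lower than in brain, 12 higher and 1 lower than in heart, and 9 enriched in liver. Clec4a1 (adjusted p of 0.0584 over brain) and Clec4a3 lost their enrichment with the trended robust prior and with only the arrays compared. Except where a value or the setting's own construction shows it, the cause was not tested. The share of all genes called was counted in the main fit alone. A changed Clec count under an alternative can therefore not be told apart from a change over all genes.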

Other observations

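A second probe set named Clec4g, dimmer than the one used, did not share its evenness. It read 6.33, 6.12, 6.84, 6.58 and 5.93 in liver arrays 1 to 5, with a mean of 6.36 ± 0.36 in liver, 4.52 ± 0.19 in brain and 4.56 ± 0.06 in heart (SD, n = 5 each). Its liver arrays ran in the order 3, 4, 1, 2, 5, which is also the order of Clec4f, while the brighter probe set was highest in liver array 2.

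Clec1b and Clec9a, neighbours on chromosome 6, did not share their order among liver arrays. Clec1b was highest in arrays 2 and 5, and Clec9a was highest in arrays 5 and 4. Each order differs from that of the Kupffer genes. Lcp2 was highest in array 1 and Mrc1 in array 2.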
